A study of Mus musculus with 22 samples.

Results

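The genes described here are 9 hexokinase and glycolytic control genes of mouse liver, namely Gckr, Hk1, Hk2, Hk3, Gpi1, Pfkl, Pfkfb1, Pfkfb3 and Pklr. They were chosen by symbol, and all 9 were found among the 23227 genes of the mRNA counts and among the 23167 gene promoters counted for histone H3 acetylated at lysine 27 (H3K27ac), a mark of active promoters and enhancers. C57BL/6J wild-type mice were compared on a chow diet (Prolab Isopro RMH 3000, Purina) and on a high-fat diet (S3282, Bioserve) given for 16 weeks from 8 weeks of age. All livers were taken at 24 weeks of age after an overnight fast, and the sex of the mice is not in the labels. Each diet had 3 mRNA libraries and 3 H3K27ac libraries. The labels do not say that equal replicate numbers stand for the same mouse, so libraries were not paired, and p-values measure the spread between these libraries.

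Glycolysis splits glucose into pyruvate, and its flux is set mainly where glucose is phosphorylated, where fructose 6-phosphate is phosphorylated, and where phosphoenolpyruvate is turned into pyruvate. Liver differs from most tissues in running the opposite path, gluconeogenesis, during a fast, so these steps face opposing enzymes in the same cells. Hepatocytes use their own forms of several enzymes, such as the pyruvate kinase of Pklr and the phosphofructokinase of Pfkl, while Hk1, Hk2, Hk3 and Pkm are better known from other cells. In rodent liver Pklr is a textbook target of carbohydrate-responsive transcription, through the factor encoded by Mlxipl.

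The promoter sequences of 3 of the genes are shown because H3K27ac was counted at promoters. Pklr is the gene with the largest mRNA difference, Pfkfb3 is the only one with a plain E-box in its windows, and Hk2 is the only one whose promoter H3K27ac passed the test. The sequences are RefSeq windows of 250 bases upstream of a start on build GRCm38.p6. They are not the authors' own promoter windows, which were counted on build mm9 with a width that is not stated. RefSeq gave 15 windows for 9 of 9 genes. The 2 motifs searched were CACGTG, an E-box, and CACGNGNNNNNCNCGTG, a spaced pair of E-box-like sites of the kind known as a carbohydrate response element. Both read the same on either strand, and a spaced pair can itself contain an E-box. The spaced pair was in 1 of the 15 windows, at Pklr, and in 13 of 32851 windows over all genes (0.0396%). The E-box was also in 1 of the 15, at Pfkfb3, and in 1978 of all windows (6.02%). Capitals mark the match, and the Hk2 window holds neither motif. Only matches to these 2 patterns were counted, so looser forms of the spaced pair would be missed. A match describes the letters and does not show that a factor binds.
Pklr, chr3:89136373-89136622, plus strand, match starting 170 bases before the start: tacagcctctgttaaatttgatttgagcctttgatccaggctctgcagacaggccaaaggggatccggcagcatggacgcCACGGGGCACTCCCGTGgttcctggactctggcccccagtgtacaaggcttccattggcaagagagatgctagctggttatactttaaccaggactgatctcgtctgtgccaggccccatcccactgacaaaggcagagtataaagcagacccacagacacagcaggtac
Pfkfb3, chr2:11502091-11502340, minus strand, match starting 53 bases before the start: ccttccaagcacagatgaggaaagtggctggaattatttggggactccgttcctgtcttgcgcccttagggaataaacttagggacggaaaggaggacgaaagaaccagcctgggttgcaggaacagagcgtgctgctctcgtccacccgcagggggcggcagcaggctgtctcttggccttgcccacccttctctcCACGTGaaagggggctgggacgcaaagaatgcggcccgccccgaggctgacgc
Hk2, chr6:82774455-82774704, minus strand, no match, 69.6% G and C: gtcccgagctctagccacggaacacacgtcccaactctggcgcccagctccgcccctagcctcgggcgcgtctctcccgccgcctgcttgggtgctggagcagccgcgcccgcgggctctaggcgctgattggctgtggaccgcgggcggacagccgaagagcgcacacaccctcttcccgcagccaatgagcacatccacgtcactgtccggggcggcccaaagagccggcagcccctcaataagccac

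mRNA totals ran from 19016275 to 45741794 counts per library and H3K27ac promoter totals from 1967613 to 4964403. Levels are given as CPM, counts per 1e+06 of the library total after TMM scaling, which corrects for differences in library composition. Differences come from edgeR's quasi-likelihood test over the whole table, with Benjamini-Hochberg adjusted p-values and a threshold of 0.05, and "rose" or "fell" on the high-fat diet is used only of genes past it. Summed mRNA of 8 hepatocyte markers was 88402 to 95987 CPM on chow and 81545 to 102613 CPM on the high-fat diet. Most of that sum is Alb, which did not pass, and of the 8 markers Ttr rose (log2 0.59) while Cps1 (−1.19), Tdo2 (−1.04) and Tat (−0.50) fell. In mRNA, chow replicate 1 stood apart with 107 CPM of skeletal muscle markers, against 0.358 to 1.07 CPM in the other 5 libraries. In H3K27ac, high-fat-diet replicate 1 was the smallest library and stood apart with 307 CPM at hepatocyte marker promoters, against 412 to 478 CPM in the others. It also had the highest sums at macrophage, lymphocyte and skeletal muscle marker promoters. Pancreatic enzyme mRNA summed to 337 to 2061 CPM on chow and 10.4 to 196 CPM on the high-fat diet. All 13 tested genes were lower in every high-fat-diet library than in any chow library, and 11 of them passed. The part of pancreatic RNA in the results below was not tested. Peak list headers hold a different directory code for each diet, so any difference in handling between the diets cannot be told apart from the diet itself.

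In mRNA, 6 of the 9 genes rose on the high-fat diet, none fell, and 3 did not pass. Of all 12909 tested genes 35.6% passed, with 18.0% on the higher side for the high-fat diet and 17.6% on the lower side (2805 higher and 1646 lower with total counts in place of TMM scaling, against 2319 and 2271, with the median log2 difference of all genes at 0.10 in place of 0.02). The 6 that rose were Pklr, Pfkfb3, Hk3, Pfkl, Hk1 and Gckr, from 3.12-fold down to 1.43-fold. The median log2 difference of the 9 genes was 1.04, beside 0.02 over all genes tested. All 9 passed the filter on low counts, and 7 of 9 had an unadjusted p under 0.05, beside 46.6% of all genes. In 5 of the 9 no library of 1 diet fell in the range of the other, all 5 higher on the high-fat diet. Over all genes 50.6% did not overlap, 25.1% higher and 25.5% lower. These are whole livers, in which fewer cells of a type and less RNA per cell cannot be told apart.

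**Figure D1:**
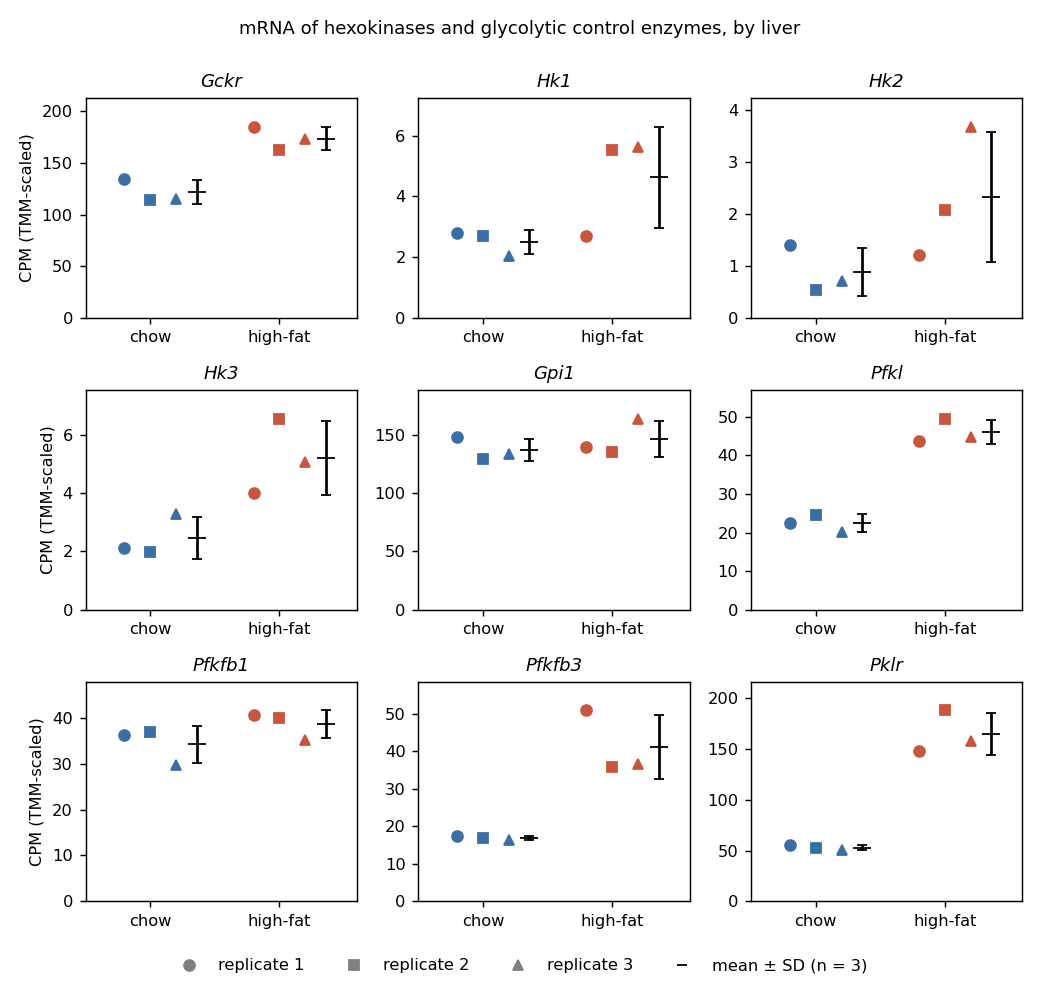
Each panel plots the mRNA level of 1 gene in CPM (TMM-scaled, axis from 0) for 3 chow and 3 high-fat-diet libraries, with replicate shown by symbol and the mean ± SD beside them. The high-fat-diet points lie above every chow point for Gckr, Hk3, Pfkl, Pfkfb3 and Pklr, and overlap the chow points for Hk1, Hk2, Gpi1 and Pfkfb1.

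Glucose phosphorylation was represented by 3 hexokinases and by Gckr. Gckr encodes a nuclear protein that binds and restrains the main glucose-phosphorylating enzyme of hepatocytes, which is not analysed here. Gckr mRNA was 135, 115 and 115 CPM on chow and 185, 163 and 173 CPM on the high-fat diet. The lowest high-fat-diet library lay above the highest chow library. The rise was the smallest of the 6, at 1.43-fold (log2 0.51, SE 0.092, edgeR adjusted p = 0.00382, n = 3 per diet). Gckr kept its call in every alternative fit and with every library left out, at log2 differences from 0.46 to 0.59.

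Hk3 encodes a hexokinase known mainly from myeloid cells. Its mRNA was 2.12, 1.98 and 3.28 CPM on chow and 4.01, 6.55 and 5.06 CPM on the high-fat diet. The diets did not overlap, and Hk3 rose 2.15-fold (log2 1.10, SE 0.253, edgeR adjusted p = 0.0109). Without chow replicate 2 the adjusted p was 0.0504. The 11 macrophage markers summed to 221, 251 and 422 CPM in chow replicates 1 to 3 and to 262, 505 and 367 CPM in the high-fat-diet replicates. Chow replicate 3 and high-fat-diet replicate 2 were the highest of their diet for both Hk3 and these markers. Of the macrophage markers 1 of 11 rose, Cd68, a lysosomal protein of macrophages (log2 0.86, SE 0.229, edgeR adjusted p = 0.0206), and the part of macrophages in the Hk3 difference was not tested.

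The genes whose log2 CPM followed Hk3 most closely over the 6 mRNA libraries were Vav1, Sfpi1, Hcls1, Rbl1 and Crlf2, with Pearson correlations from 0.993 to 0.999. Vav1 and Hcls1 encode signalling proteins of blood cells, and Sfpi1 is the older symbol of the myeloid transcription factor PU.1. All 6 libraries differ in diet, depth and cell content at once, and 136 tested genes had a correlation over 0.95 with Hk3. Their log2 differences between the diets ran from 0.32 for Crlf2 to 0.97 for Sfpi1, a direction fixed by choosing genes that follow Hk3.

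Hk1 and Hk2 encode hexokinases found widely outside hepatocytes, Hk2 chiefly in muscle, fat and proliferating cells. Hk1 mRNA was 2.78, 2.68 and 2.04 CPM on chow and 2.71, 5.53 and 5.64 CPM on the high-fat diet. High-fat-diet replicate 1 lay within the chow range while the other pair lay above it. Hk1 rose 1.83-fold (log2 0.88, SE 0.286, edgeR adjusted p = 0.0438), and the call was lost when any 1 of the chow libraries or high-fat-diet replicate 2 or 3 was left out (adjusted p up to 0.149). In the authors' deposited table the Hk1 difference was log2 0.49 with an adjusted p of 0.173. In high-fat-diet replicates 1 to 3 the summed markers of endothelium were 243, 420 and 367 CPM, those of stellate cells 205, 331 and 451 CPM, and those of macrophages 262, 505 and 367 CPM, lowest in replicate 1 as for Hk1. In chow replicates 1 to 3 the sums were 223, 282 and 331 CPM for endothelium and 325, 322 and 320 CPM for stellate cells. For macrophages they were 221, 251 and 422 CPM. On chow, Hk1 was highest in replicate 1, where the endothelium and macrophage sums were lowest, and lowest in replicate 3, where they were highest. Of the tested markers 1 of 8, 2 of 8 and 1 of 11 rose, 1 of 8 stellate markers fell, and the part of these cells in the Hk1 difference was not tested.

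Hk2 mRNA was 1.40, 0.536 and 0.699 CPM on chow and 1.21, 2.08 and 3.67 CPM on the high-fat diet. These levels rest on 10 to 82 counts per library. The highest chow library exceeded the lowest high-fat-diet library, and the log2 difference of 1.29 (SE 0.467) did not pass (edgeR adjusted p = 0.0620). The highest chow value was in the library with 107 CPM of skeletal muscle markers. Without that library the difference was log2 1.90 and passed (adjusted p = 0.0360), as it did when high-fat-diet replicate 1 was left out instead (1.56, adjusted p = 0.0220) and with DESeq2 (1.33, adjusted p = 0.0236). It did not pass without chow replicate 2 or 3 or without high-fat-diet replicate 2 or 3. Those log2 differences were 0.80 to 1.37 (edgeR adjusted p from 0.112 to 0.186). With a replicate block Hk2 did not pass either (edgeR adjusted p = 0.103). In the authors' deposited table the Hk2 difference was log2 1.02 with an adjusted p of 0.0283. Hkdc1, a further gene of the hexokinase family, had 0.233 to 0.697 CPM and did not pass the filter on low counts.

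Gpi1 encodes the reversible isomerase between glucose 6-phosphate and fructose 6-phosphate, a step that both directions of the pathway share. Its mRNA was 148, 129 and 134 CPM on chow and 140, 135 and 164 CPM on the high-fat diet. The diets overlapped, and the log2 difference of 0.09 had a 95% interval from −0.13 to 0.32 (edgeR adjusted p = 0.476).

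Phosphofructokinase commits fructose 6-phosphate to glycolysis, and Pfkl is its liver form. Pfkl mRNA was 22.4, 24.7 and 20.1 CPM on chow and 43.8, 49.6 and 44.9 CPM on the high-fat diet. Every high-fat-diet library was far above every chow library. The log2 difference was 1.04 (SE 0.0993, edgeR adjusted p = 0.000246). The muscle form Pfkm had means of 20.4 CPM (SD 2.47, n = 3) on chow against 17.5 CPM (SD 1.52, n = 3) with high fat, and its difference of −0.23 did not pass (edgeR adjusted p = 0.154). The platelet form Pfkp, at 2.37 CPM (SD 0.0967) and 3.17 CPM (SD 0.813), did not pass either (log2 0.43, edgeR adjusted p = 0.159).

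Pfkfb1 to Pfkfb4 encode 6-phosphofructo-2-kinase/fructose-2,6-bisphosphatases, which make and remove fructose 2,6-bisphosphate, the main activator of phosphofructokinase in liver. The liver form of Pfkfb1 favours the phosphatase when phosphorylated in fasting, while the form of Pfkfb3 has strong kinase and little phosphatase activity. Pfkfb3 mRNA was 17.4, 16.9 and 16.2 CPM on chow and 50.8, 35.7 and 36.6 CPM on the high-fat diet. The chow libraries lay close together, and every high-fat-diet library was above them. Pfkfb3 rose 2.43-fold (log2 1.28, SE 0.141, edgeR adjusted p = 0.000449).

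Pfkfb1 mRNA was 36.2, 36.8 and 29.6 CPM on chow and 40.6, 39.9 and 35.0 CPM on the high-fat diet. The diets overlapped, and the log2 difference of 0.17 had a 95% interval from −0.08 to 0.42 (edgeR adjusted p = 0.249). The remaining pair of the family, from the list of other glycolysis genes, moved in opposite directions. Pfkfb2, the form best known from heart, fell from a mean of 93.5 CPM (SD 10.5) to 65.5 CPM (SD 6.03) (log2 −0.51, SE 0.107, edgeR adjusted p = 0.00718). Pfkfb4 rose from 0.681 CPM (SD 0.188) to 1.27 CPM (SD 0.0612) (log2 0.89, SE 0.269, edgeR adjusted p = 0.0336). Its call was lost without the filter on low counts and with a replicate block. The same held without any 1 chow library and without high-fat-diet replicate 2 or 3.

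Pyruvate kinase makes pyruvate and ATP at the end of the pathway, and Pklr encodes the form of liver and red cells. Pklr mRNA was 55.4, 52.3 and 50.5 CPM on chow and 148, 188 and 158 CPM on the high-fat diet. The lowest high-fat-diet library was well above the highest chow library. The log2 difference of 1.64 (SE 0.103, edgeR adjusted p = 7.01e-05) was the largest of the 9 genes, and 1.74% of all genes tested had a larger one. Among 7 erythroid markers 4 were at 0 in all libraries. The only one tested, Alas2, the heme synthesis enzyme of red cell precursors, rose (log2 0.59, SE 0.158, edgeR adjusted p = 0.0205). The summed erythroid markers were 64.8 to 93.0 CPM on chow and 94.7 to 125 CPM on the high-fat diet, and their part in the Pklr difference was not tested. The muscle and fetal form Pkm (Pkm2 in the files) averaged 16.2 CPM (SD 1.94) on chow against 24.0 CPM (SD 6.81) with high fat and did not pass (log2 0.57, SE 0.202, edgeR adjusted p = 0.0581).

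Over the 6 mRNA libraries the genes most like Pklr in log2 CPM were Iqsec2, Gm5069, Mtrr, Zfp341 and Zfyve1, with Pearson correlations from 0.996 to 0.999. Mtrr encodes a reductase that keeps methionine synthase active. Their log2 differences between the diets ran from 0.49 for Mtrr to 2.78 for Gm5069, a direction fixed by choosing genes that follow Pklr. Likeness of this size was common, since 744 tested genes had a correlation over 0.95 with Pklr.

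Ratios of counts within a library do not depend on how libraries are scaled against each other, and 6 were formed. The log2 ratio of Pklr to Pkm was 1.69, 1.90 and 1.53 on chow and 3.17, 2.85 and 2.42 on the high-fat diet, a difference of 1.10. For Pfkl against Pfkm and Pfkp together it was −0.19, 0.21 and −0.09 on chow and 1.13, 1.33 and 1.02 on the high-fat diet, a difference of 1.18. Both isozyme balances thus lay further towards the liver form in every high-fat-diet library than in any chow library.

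Within the bifunctional enzymes the log2 ratio of Pfkfb1 to Pfkfb3 was 1.06, 1.12 and 0.87 on chow and −0.32, 0.16 and −0.06 on the high-fat diet. The ratio was lower by 1.09 on the high-fat diet, again with no overlap. It leaves out Pfkfb2, which fell, and Pfkfb4, so it does not describe the whole family. The ratio of Hk1 to Hk2 overlapped, with a difference of −0.53 (exact permutation p = 0.4, two-sided, adjusted p over 6 ratios = 0.4).

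Against the opposing enzymes, the log2 ratio of Pfkl to Fbp1, the bisphosphatase that reverses its step, was −5.69, −5.50 and −5.85 on chow and −4.29, −4.15 and −4.09 on the high-fat diet. The difference was 1.50. For Pklr to Pck1, which makes phosphoenolpyruvate in gluconeogenesis, the ratio was −6.22, −5.78 and −6.35 on chow and −4.58, −3.83 and −4.10 on the high-fat diet, a difference of 1.95. For the 5 ratios without overlap the exact permutation p was 0.1, two-sided, the smallest that 3 against 3 libraries allow, and 0.12 adjusted over the 6 ratios, so none could pass. A ratio shows unequal change and not which gene changed, and levels of different genes are not compared here because no transcript lengths were used.

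**Figure D2:**
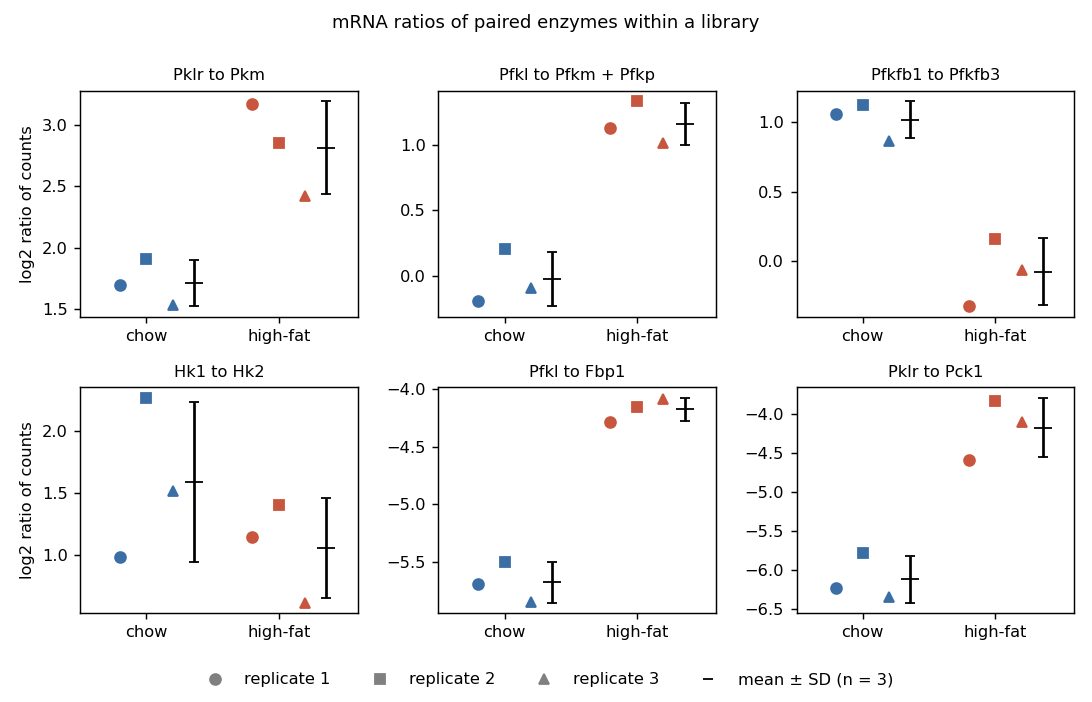
Each panel plots the log2 ratio of mRNA counts of 2 enzymes (of Pfkl to the sum of 2 in 1 panel) in each of 3 chow and 3 high-fat-diet libraries, with the mean ± SD beside them; the axes do not start at 0. The diets do not overlap in 5 panels, and they overlap for Hk1 to Hk2.

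Of 19 other glycolysis genes, 16 passed the filter on low counts. Among these 1 rose, 5 fell and 10 did not pass, so that 37.5% were past the threshold beside 35.6% of all genes tested. Their median log2 difference was −0.26 beside 0.02 over all genes, and the difference from the control genes was not tested. The riser was Pfkfb4, whose call was lost in the alternatives named above. Bpgm, which makes 2,3-bisphosphoglycerate, fell by 0.59 on the log2 scale and Tpi1, the triose phosphate isomerase, by 0.42 (edgeR adjusted p = 0.00228 and 0.00598). Aldoa, the muscle aldolase, fell by 0.45 (edgeR adjusted p = 0.0058), and Pgk1, a phosphoglycerate kinase, by 0.29 (edgeR adjusted p = 0.0166). Most of these enzymes work near equilibrium and serve both directions of the pathway. Eno3, a muscle enolase, was highest in the chow library with muscle markers, at 11.3 CPM against 3.72 to 5.55 CPM in the other libraries. Eno1 was listed at 0.107 to 0.224 CPM in mRNA but had 109 to 122 CPM of H3K27ac at its promoter, and its mRNA count is uncertain because reads shared with near-identical copies can be lost in counting.

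**Figure D3:**
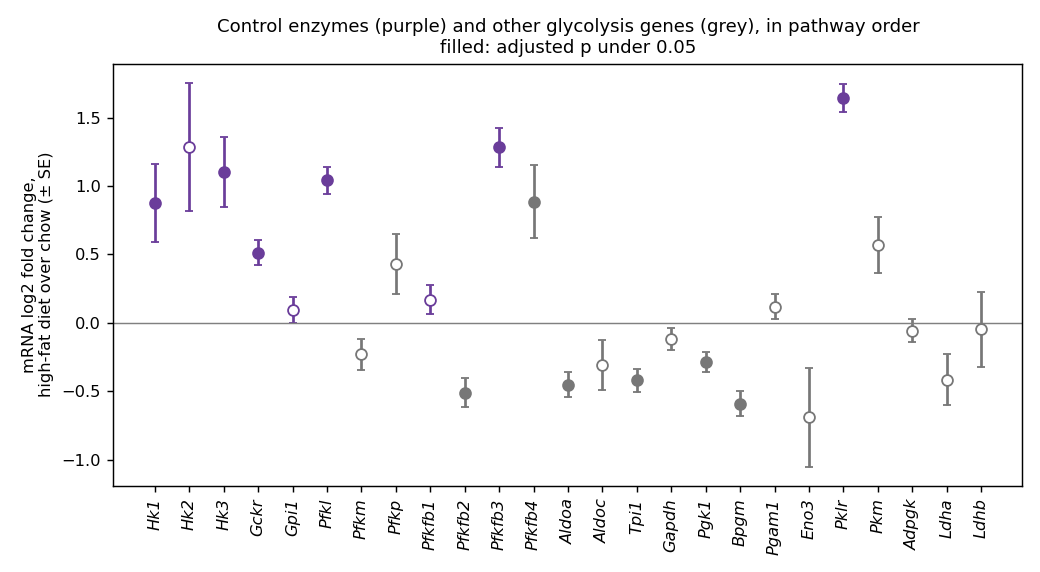
mRNA log2 fold changes of high-fat diet over chow (± SE), for the 9 genes described here (purple) and 16 other tested glycolysis genes (grey). Grey genes include Pfkm, Pfkp, Pfkfb2, Pfkfb4 and Pkm, which act at control steps, and purple ones include Gpi1, which does not. Genes are ordered by step apart from Adpgk, placed between Pkm and Ldha, and filled points passed the adjusted p threshold of 0.05. Filled purple points lie above 0, while the filled grey points lie below 0 apart from Pfkfb4.

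Genes of sugar entry, sugar sensing and pyruvate fate moved in both directions. Of 30 tested, 11 rose, 7 fell and 12 did not pass, so that 60% were past the threshold beside 35.6% of all genes. The median log2 difference of the list was 0.17, beside 0.02 over all genes. In this list the largest changes upward were in Srebf1, a lipogenic transcription factor (log2 2.17), and Khk, which phosphorylates fructose (1.11). Next came the glucose transporter genes Slc2a2 (0.93) and Slc2a1 (0.90), and edgeR adjusted p for all of these ran from 0.000211 to 0.000876. The strongest falls were in Pdk4, the kinase that switches off pyruvate dehydrogenase (log2 −1.97, edgeR adjusted p = 0.000433), and Slc16a1, a carrier of lactate and pyruvate (−1.83, edgeR adjusted p = 3.79e-05). Mlxipl itself rose by log2 0.68 (SE 0.156, edgeR adjusted p = 0.0111). Without chow replicate 2 the count past the threshold was 11 of 30 in place of 18. With total counts in place of TMM scaling, 13 of the list passed as higher and 3 as lower. Among the 4 opposing enzymes G6pc (log2 −1.31) and Fbp1 (−0.45) fell, and Pck1 (−0.32, edgeR adjusted p = 0.218) and Slc37a4 (−0.18, edgeR adjusted p = 0.0870) did not pass.

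At the promoters, H3K27ac passed the test in 1 of the 9 genes, Hk2, while the 5 genes whose mRNA rose without overlap between the diets, Pklr, Pfkfb3, Pfkl, Hk3 and Gckr, did not pass. Of all 20891 tested promoters 0.235% passed, with 0.187% on the higher side for the high-fat diet and 0.0479% on the lower side. Diets were fully separated by library at 4 of the 9 promoters, 3 of them higher (Hk1, Hk2 and Pfkfb3) and 1 lower (Gckr). Over all promoters 19.5% did not overlap, 9.77% higher and 9.73% lower. The same 4 had an unadjusted p under 0.05, beside 14.0% of all promoters.

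**Figure D4:**
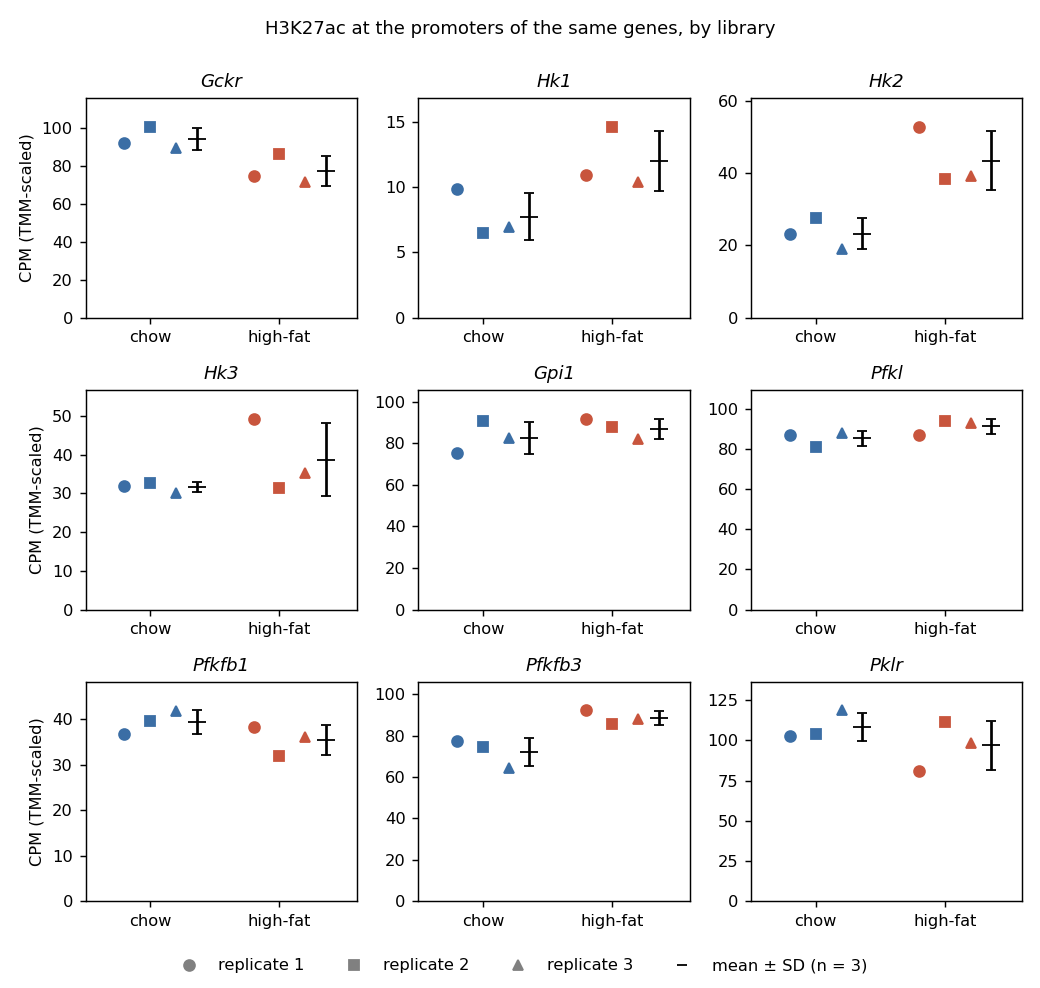
Each panel plots H3K27ac counts at 1 gene's promoter in CPM (TMM-scaled, axis from 0) for 3 chow and 3 high-fat-diet libraries, with the mean ± SD beside them. Hk2, Hk1 and Pfkfb3 are higher in every high-fat-diet library than in any chow library, Gckr is lower in every one, and the other 5 overlap.

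H3K27ac at the Hk2 promoter, whose GC-rich upstream sequence is printed above, was 23.1, 27.5 and 18.9 CPM on chow and 52.8, 38.3 and 39.2 CPM on the high-fat diet. All high-fat-diet libraries lay above all chow libraries. The rise was 1.88-fold (log2 0.91, SE 0.167, edgeR adjusted p = 0.0128, n = 3 per diet), and 0.57% of promoters tested had a larger difference. In the authors' deposited table it was log2 0.67 with an adjusted p of 0.00731. Without high-fat-diet replicate 1, the highest library and the one that stands apart, it was log2 0.78 and passed (adjusted p = 0.00255). The call was lost without any 1 of the chow libraries or without high-fat-diet replicate 3, at log2 0.77 to 1.02 (adjusted p from 0.0526 to 0.226). Few promoters passed in those smaller fits, 0 to 8 in all.

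H3K27ac at macrophage marker promoters summed to 179 to 203 CPM on chow and 220 to 323 CPM on the high-fat diet. Of 10 tested, 1 passed the threshold, beside 0.235% of all promoters. An unadjusted p under 0.05 was found at 6 of 10, beside 14.0% of all promoters. At skeletal muscle marker promoters the sums were 73.1 to 99.8 CPM on chow and 98.9 to 135 CPM on the high-fat diet. High-fat-diet replicate 1 had the highest value in both sums and at the Hk2, Hk3, Gpi1 and Pfkfb3 promoters. Such unadjusted p-values were also found at 6 of 7 lymphocyte, 4 of 9 neutrophil, 4 of 7 erythroid and 3 of 6 cholangiocyte marker promoters. For adipocyte and skeletal muscle markers it was 2 of 5 each. The counts were 2 of 8 for hepatocyte, 2 of 12 for pancreatic, 1 of 8 for endothelium and 1 of 8 for stellate markers. The part of other cells in the Hk2 difference was not tested.

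At the Pklr promoter, whose window above carries the spaced pair of motifs, H3K27ac was 103, 104 and 118 CPM on chow and 81.1, 111 and 98.0 CPM on the high-fat diet. The diets overlapped, and the log2 difference of −0.15 had a 95% interval from −0.36 to 0.07 (edgeR adjusted p = 0.548), beside the mRNA difference of 1.64. High-fat-diet replicate 1 was the lowest library.

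At the Pfkl promoter H3K27ac was 87.2, 81.3 and 87.9 CPM on chow and 87.1, 94.0 and 93.3 CPM on the high-fat diet. Its log2 difference of 0.10 had an interval from −0.08 to 0.28 (edgeR adjusted p = 0.648). For both Pklr and Pfkl the promoter interval included 0, and their mRNA rose. mRNA and H3K27ac are unlike assays, so the sizes of their log2 differences are not on 1 scale.

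At the Pfkfb3 promoter H3K27ac was 77.4, 74.4 and 64.5 CPM on chow and 92.1, 85.5 and 87.9 CPM on the high-fat diet. The diets did not overlap, yet the log2 difference of 0.30 (SE 0.0930) did not pass over all promoters (edgeR adjusted p = 0.150). Gckr was on the other side, with 92.1, 101 and 89.5 CPM on chow and 74.7, 86.1 and 71.4 CPM on the high-fat diet. Its log2 difference of −0.26 (SE 0.0943) did not pass (edgeR adjusted p = 0.213), and its mRNA rose.

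Hk1 had the fewest promoter counts, 15 to 55 per library, or 9.82, 6.45 and 6.98 CPM on chow and 11.0, 14.6 and 10.4 CPM on the high-fat diet. Its log2 difference of 0.62 (SE 0.254) did not pass (edgeR adjusted p = 0.273). Hk3, Gpi1 and Pfkfb1 overlapped between the diets, with log2 differences of 0.25, 0.08 and −0.17 (edgeR adjusted p = 0.483, 0.727 and 0.607). The files give 1 promoter per symbol, although RefSeq lists more than 1 start for Hk1, Pfkfb1, Pfkfb3 and Pklr, so a change at an uncounted start would not be seen.

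**Figure D5:**
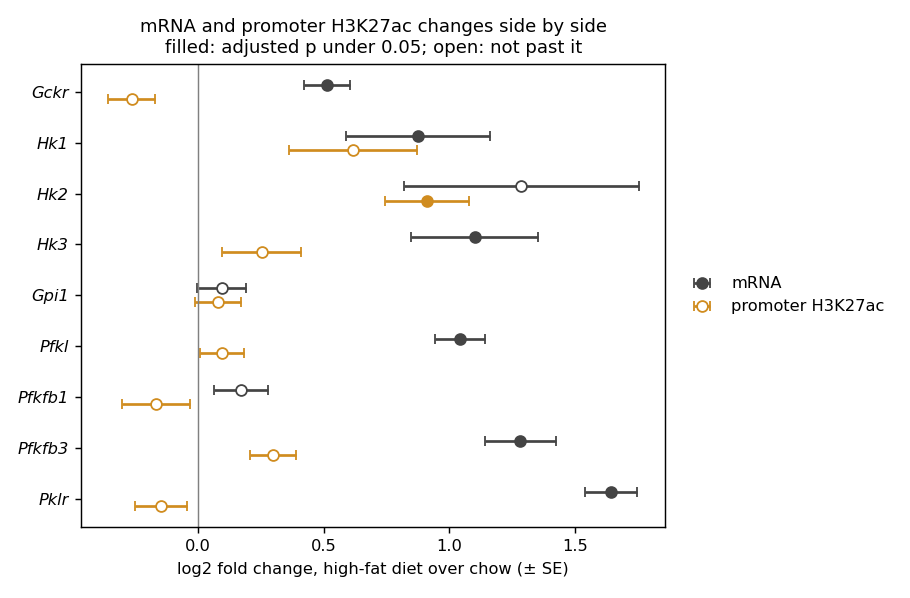
For each of the 9 genes the log2 fold change of high-fat diet over chow (± SE) is plotted for mRNA (dark) and for promoter H3K27ac (orange); filled points passed the adjusted p threshold of 0.05. Pklr, at 1.64 in mRNA and −0.15 at the promoter, shows the widest gap, and Hk2 is the only gene with a filled orange point.

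None of the other pathway promoters passed. In edgeR's test 0 of 19 other glycolysis promoters passed (3 at an unadjusted p under 0.05, and 0 with DESeq2), 0 of 30 in the sugar and pyruvate list (2 unadjusted, and 0 with DESeq2) and 0 of 4 opposing enzymes (1 unadjusted, and 0 with DESeq2). The median log2 differences of these lists were −0.001, −0.07 and −0.17, beside −0.003 over all promoters. The Pkm promoter, at 34.8 CPM (SD 1.90) on chow against 51.0 CPM (SD 7.39) with high fat, did not overlap between the diets and had a log2 difference of 0.52 (edgeR adjusted p = 0.0758).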

How the data were processed

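mRNA and H3K27ac were measured in livers of mice on 2 diets, with 3 libraries per diet and assay. Livers were frozen and powdered before use, and the mRNA kit named in the labels does not mark strand, so reads of overlapping antisense genes cannot be told apart. The deposited files hold raw counts per gene and per gene promoter. Per the submitters' processing notes, TopHat 1.4.0, HTSeq, DESeq2 1.0.18 and bedtools were used for mRNA, and Bowtie 0.12.7, MACS 1.4.0rc2, bedtools and DESeq2 for chromatin, on build mm9. The authors' deposited DESeq2 tables give a base mean signal (a normalized mean count), log2 fold changes and adjusted p-values, which are quoted only where that table is named. Whether those fold changes were shrunken is not stated in the sources used here.

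Each count table was fitted whole with edgeR 4.0.16 in R 4.3.3 (filterByExpr by diet, TMM factors, quasi-likelihood F test with diet as the only term, two-sided, Benjamini-Hochberg adjustment, threshold 0.05). Fold changes come from the fit, and intervals are 95%. The steps were tested on simulated data. The 6 ratios used counts plus 0.5 and an exact permutation test. Likeness of genes was the Pearson correlation of log2(CPM + 0.5). The members and lists were chosen with earlier results of these data known. Named genes were all 9 members, the opposing enzymes, the genes in the ratios, the 6 genes of largest change past the threshold in each pathway list, and the 5 genes most like Pklr and Hk3. The genes Hkdc1, Eno1, Eno3, Mlxipl, Cd68, Alas2 and 5 hepatocyte markers were added after their values were seen. Alternatives were other scaling, DESeq2 1.42.0, no filter on low counts, a replicate block, another added count and each library left out. A gene of the glycolysis list is not reported here and is left out of that list's counts. Peak files were not used, since no mm9 annotation was at hand to place peaks on genes. Reads carry no molecular identifiers.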

Additional observations from a re-analysis of the deposited data

How the results depend on the processing

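The log2 differences of the 9 genes in mRNA and at promoters and of the 6 ratios kept their sign in every alternative that was run. The larger side of the whole-table mRNA calls did not, with 2319 higher and 2271 lower against 2259 and 2351 with DESeq2 size factors, 2157 and 2174 with DESeq2, 1599 and 1634 without chow replicate 3, and 2580 and 2583 without high-fat-diet replicate 1. The mRNA count of the 9 genes past the threshold ran from 4 to 7 with 1 library left out, against 6. With DESeq2 it was 7, with Hk2 added, and with a replicate block it was 5, with Hk1 lost (adjusted p = 0.0780). Over all genes the mRNA count ran from 2899 (without chow replicate 2) to 5163 with 1 library left out. The promoter count of the 9 genes ran from 0 to 1, and that of all promoters from 0 to 736, against 49 (1, 0 and 7 without chow replicate 1, 2 or 3, and 95, 736 and 8 without high-fat-diet replicate 1, 2 or 3). With a replicate block 470 promoters passed, 1 of them from the other glycolysis list. For libraries of equal replicate number, correlations of deviations from the diet means were 0.08, −0.06 and 0.15 in mRNA. For unequal numbers they ran from −0.15 to 0.07. In H3K27ac they were 0.09, −0.005 and 0.04 for equal numbers, against −0.13 to 0.12 for unequal ones. So few values cannot decide whether equal numbers pair libraries. The block p of the ratios was 0.25 at the smallest, which 3 pairs cannot go below. With 1 library left out, the sugar and pyruvate list had 11 to 19 mRNA calls, and promoter calls ran from 0 to 2 for the other glycolysis genes, from 0 to 1 for sugar and pyruvate genes and from 0 to 1 for the opposing enzymes. The cause of these shifts was not tested. Counts were lowest for Hk2 mRNA and the Hk1 promoter, which rest on 10 to 82 and 15 to 55 counts per library.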
